A study of Homo sapiens with 6 samples.

Results

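RNA of PC-3 cells, an androgen-independent human line that was grown out of prostate cancer in bone, was examined for 9 genes of nitrogen and amine metabolism: CPS1, ASS1, ASL, ARG2, GLUL, ASNS, ODC1, SRM and SAT1. They were taken by symbol from 30651 genes with counts, and all 9 were found once and had enough reads to be tested. The list was selected on the counts of these same libraries, with the difference between the groups known, so that difference is described here and nothing is supported with it. The 6 libraries form 2 groups of 3, called Ctrl and MTA1 in the labels. The column names carry NC for the first and shMTA1 for the second, the usual prefix of a short hairpin RNA, here against MTA1, a subunit of the NuRD chromatin complex. Both groups were PC-3 cells in DMEM/F12 medium with fetal bovine serum, streptomycin and penicillin. For both, the labels mention lentivirus, transfection and stable clone screening, without saying how many hairpins or clones there were, what the control cells carried, or whether each library had a culture of its own. A p-value here thus measures no more than how far these 6 libraries scatter, and that scatter may be technical. The comparison asks which of these genes differ in level between the MTA1 group and Ctrl.

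The urea cycle turns ammonia into urea and is complete in liver. CPS1 makes carbamoyl phosphate from ammonia in mitochondria, OTC joins it to ornithine to give citrulline, ASS1 links citrulline to aspartate, ASL splits the product into arginine and fumarate, and arginase cuts arginine into urea and ornithine. Outside liver, parts of the cycle serve other ends: ASS1 and ASL make arginine, and CAD, a cytosolic enzyme, makes its own carbamoyl phosphate from glutamine for pyrimidines. GLUL and ASNS attach nitrogen to glutamate and aspartate. Ornithine also feeds polyamines: ODC1 makes putrescine, SRM spermidine and SMS spermine, while SAT1 acetylates spermidine and spermine and so opens their breakdown and export. Prostate epithelium is known for secreting large amounts of polyamines.

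Depth was 29909172 to 33849262 counts per library, and the biological coefficient of variation between replicates was 4.45%. MTA1 itself stood at 38.3, 40.6 and 41.1 CPM (counts scaled to library depth, with library sizes adjusted by TMM) in Ctrl and at 17.3, 18.04 and 16.7 CPM in the MTA1 group, which left 43.4% of the Ctrl level. Of the markers of the line, KRT8 and KRT18 were high at 1886 ± 43.9 and 1343 ± 59.4 CPM (SD, n = 3) in Ctrl, and KLK3 and TMPRSS2 were near 0. As the samples are bulk RNA, fewer cells of a type and less RNA per cell cannot be told apart.

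Promoter windows of 3 of the genes (CPS1, ASNS and SRM) are shown. They hold a match to a short motif in the 250 bases before a start, with no other start of that gene close before. The levels of the genes played no part in this rule. ASS1 and ODC1 also held a match before a start, but another start of the same gene lay close before it. Each window shown is the 250 bases before a RefSeq transcript start, 5′ to 3′ on the strand of the gene, in build GRCh38.p14. Capitals mark the match, which is TGATGNAA (the core of the amino acid response element that ATF4 complexes read) or CACGTG (the E-box that MYC and MAX read).
CPS1, second of 3 starts, chr2:210519468-210519717, + strand: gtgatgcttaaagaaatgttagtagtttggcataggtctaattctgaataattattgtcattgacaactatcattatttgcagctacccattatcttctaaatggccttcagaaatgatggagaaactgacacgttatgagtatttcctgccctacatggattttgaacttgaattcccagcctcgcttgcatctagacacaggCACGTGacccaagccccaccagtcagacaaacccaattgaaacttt
ASNS, first of 2 starts, chr7:97872409-97872658, - strand: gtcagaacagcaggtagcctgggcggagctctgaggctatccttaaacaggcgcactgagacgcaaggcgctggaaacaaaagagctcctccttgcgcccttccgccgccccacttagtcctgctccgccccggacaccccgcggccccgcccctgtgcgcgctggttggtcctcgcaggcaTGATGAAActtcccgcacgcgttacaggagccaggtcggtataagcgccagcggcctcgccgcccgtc
SRM, its only start, chr1:11060019-11060268, - strand: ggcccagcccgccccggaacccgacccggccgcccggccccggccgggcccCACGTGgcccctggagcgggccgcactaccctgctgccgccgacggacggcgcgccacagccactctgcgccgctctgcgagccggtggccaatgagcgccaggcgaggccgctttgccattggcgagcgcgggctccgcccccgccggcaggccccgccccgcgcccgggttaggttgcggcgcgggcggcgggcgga
The search covered both strands of windows of 300 bases, 250 before and 50 after a start, and the motifs do not overlap each other. All 9 genes matched the table, with 15 windows. TGATGNAA was found in the first ASNS window, with its first base at -68 (as TGATGAAA), and in 3.62% of all 35116 windows. CACGTG was found in 1 window each of CPS1 (-46), ASS1 (-71), ODC1 (-29 and again at 6) and SRM (-199), and in 7.26% of all windows. The windows of ASL, ARG2, GLUL and SAT1 held neither. These matches are descriptions of letters, not of binding.

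Compared per gene length, the 9 genes spanned a wide range of levels. ASS1 was the highest in Ctrl at 166 ± 5.37 FPKM (fragments per kilobase, scaled to library depth), followed by SRM at 71.3 ± 4.42, SAT1 at 68.5 ± 0.304 and ODC1 at 25.5 ± 1.18 FPKM. CPS1 (3.82 ± 0.155 FPKM), ASL (3.49 ± 0.244), ASNS (1.71 ± 0.121), ARG2 (1.35 ± 0.115) and GLUL (0.130 ± 0.0100) were far below. The libraries of SRM and SAT1 overlapped, as did those of CPS1 and ASL, and no other neighbours in this order did. In the MTA1 group ASS1 still led at 95.8 ± 2.54 FPKM, just above SAT1 at 89.7 ± 0.965 and SRM at 89.6 ± 9.39, which overlapped each other. The highest SRM library (97.23 FPKM) also lay above the lowest ASS1 library (93.57 FPKM). CPS1 moved from the fifth to the eighth place, at 0.657 ± 0.00577 FPKM, below ASL (5.60 ± 0.522), ASNS (2.63 ± 0.0954) and ARG2 (2.40 ± 0.0569) and above GLUL (0.0967 ± 0.0321). All levels of GLUL were close to the last decimal of the deposited FPKM, which has 2 decimals.

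**Figure D1:**
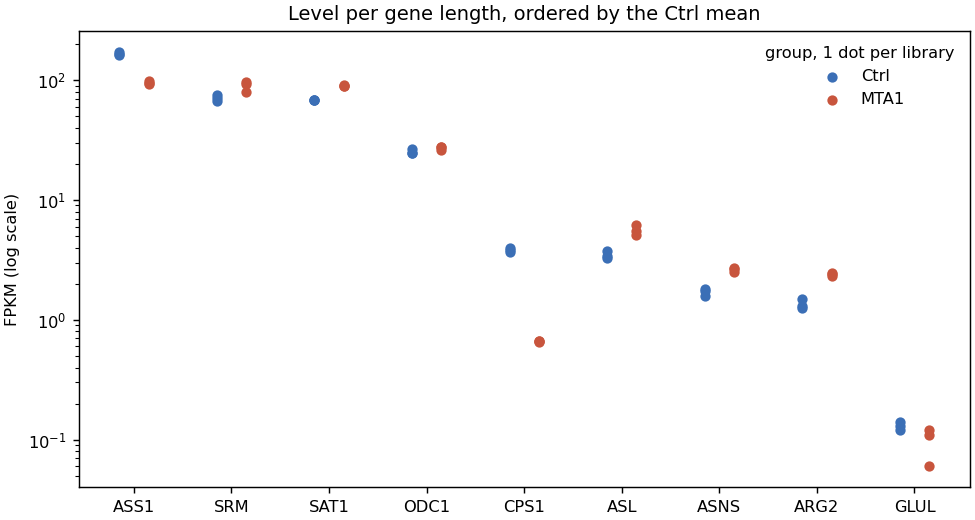
FPKM on a log scale for the 9 genes, ordered by their Ctrl mean, with 1 dot per library and the groups side by side. ASS1 stands highest and GLUL lowest in both groups, and CPS1 drops from 3.82 to 0.657 FPKM, under ASNS and ARG2.

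CPS1 had the largest difference of the 9. It had 1515, 1649 and 1544 reads in Ctrl replicates 1 to 3 and 246, 251 and 246 in the MTA1 replicates, or 49.0, 50.4 and 46.9 CPM against 8.07, 7.92 and 7.93 CPM. The groups were far apart and the MTA1 libraries nearly equal, with a coefficient of variation of 1.09% against 3.54% in Ctrl. The remaining level was 16.3% of Ctrl, a log2 fold change of -2.61 ± 0.058 (SE, edgeR), the 28th lowest of 15423 genes. On log2(FPKM + 1), a scale that compresses low levels, the value was -1.54. CPS1 was the only one of the 9 past the threshold at 2-fold or more in either direction. Of all 15423 genes, 954 were past it in either direction, and 3.33% were at least 2-fold lower. The intronic transcript CPS1-IT1 had 2, 2 and 0 reads in Ctrl and 0 in each MTA1 library.

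The next steps of the cycle went different ways. ASS1, the enzyme that limits arginine synthesis from citrulline, stood at 568, 596 and 578 CPM in Ctrl and 313, 319 and 327 CPM in the MTA1 group. Its groups did not overlap, and 55.1% of the Ctrl level remained (-0.86 ± 0.039). ASL, which takes up the product of ASS1, stood at 23.2, 26.1 and 23.8 CPM in Ctrl and 36.8, 34.3 and 40.8 CPM in the MTA1 group. Here every MTA1 library was above every Ctrl library, at 1.53 times the mean (0.61 ± 0.064). The FPKM ratio of ASS1 to ASL was 48.8, 45.6 and 48.5 in Ctrl and 17.0, 18.6 and 16.0 in the MTA1 group, so ASS1 stayed well above ASL per length throughout. ASS1 has many processed pseudogenes, of which 8 were listed with 18 reads in all, too few to move its value when added. Any reads that match both and were left uncounted cannot be seen this way. ASL is overlapped on its own strand by another gene, AC068533.7, with 30, 28 and 25 reads in Ctrl and 44, 43 and 53 in the MTA1 group. That gene was chosen after its values were seen, and reads shared with it are uncertain.

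ARG2, the mitochondrial arginase found outside liver, was higher as well. It had 104, 127 and 114 reads in Ctrl and 189, 188 and 188 in the MTA1 group, or 3.37, 3.88 and 3.47 CPM against 6.20, 5.93 and 6.06 CPM. The groups did not overlap, and the MTA1 mean was 1.70 times that of Ctrl (0.76 ± 0.10), the largest difference upward among the 9. ARG2 overlaps VTI1B, a SNARE gene on the opposite strand with 94.7 CPM in Ctrl, which fell to 71.1 CPM (-0.41 ± 0.044, edgeR adjusted p = 9.96e-08). VTI1B was chosen after its values were seen. Whether the counting used strand is unknown here, and without strand the reads of this pair cannot be told apart.

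Of the enzymes that attach nitrogen to acidic amino acids, ASNS was higher and GLUL did not pass. GLUL had only 55, 60 and 66 reads in Ctrl and 26, 48 and 52 in the MTA1 group. These are 1.78, 1.83 and 2.01 CPM against 0.853, 1.51 and 1.68 CPM, with MTA1 replicate 1 far below the others and no overlap between the groups. The log2 fold change of -0.47 ± 0.21 did not pass, and without MTA1 replicate 1 it was -0.23. It did pass without MTA1 replicate 3 (-0.65, edgeR adjusted p = 0.0206), with no filter on low counts (edgeR adjusted p = 0.0410) and in limma-voom (adjusted p = 0.0436). ASNS stood at 8.96, 9.86 and 10.2 CPM in Ctrl and 14.6, 13.7 and 14.4 CPM in the MTA1 group. The groups were separate, with a mean 1.47 times that of Ctrl (0.55 ± 0.072). A transcript on the same strand, RP5-1090P18.1, overlaps ASNS, with 118, 103 and 112 reads in Ctrl and 155, 148 and 133 in the MTA1 group against 277 to 337 and 434 to 448 for ASNS. It was chosen after its values were seen, and how the reads were divided between this pair is uncertain.

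The polyamine genes were abundant, and their differences were small. ODC1, the enzyme that commits ornithine to polyamines, stood at 80.4, 85.9 and 80.6 CPM in Ctrl and 85.7, 81.0 and 84.6 CPM in the MTA1 group. These ranges overlapped and the log2 fold change was 0.03 ± 0.044. SRM stood at 147, 164 and 157 CPM in Ctrl and 166, 194 and 202 CPM in the MTA1 group. The lowest MTA1 library, replicate 1, was only just above the highest Ctrl library, and the MTA1 mean was 120.0% of that of Ctrl (0.26 ± 0.058). SAT1 had the smallest spread of the 9 in Ctrl, with 198, 196 and 197 CPM in Ctrl and 249.5, 244 and 245 CPM in the MTA1 group. Its ratio of 1.25 (0.32 ± 0.037) was small but beyond the spread, with coefficients of variation of 0.334% and 1.204%. The FPKM ratio of SAT1 to ODC1 was 2.70 ± 0.110 in Ctrl and 3.30 ± 0.0720 in the MTA1 group.

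**Figure D2:**
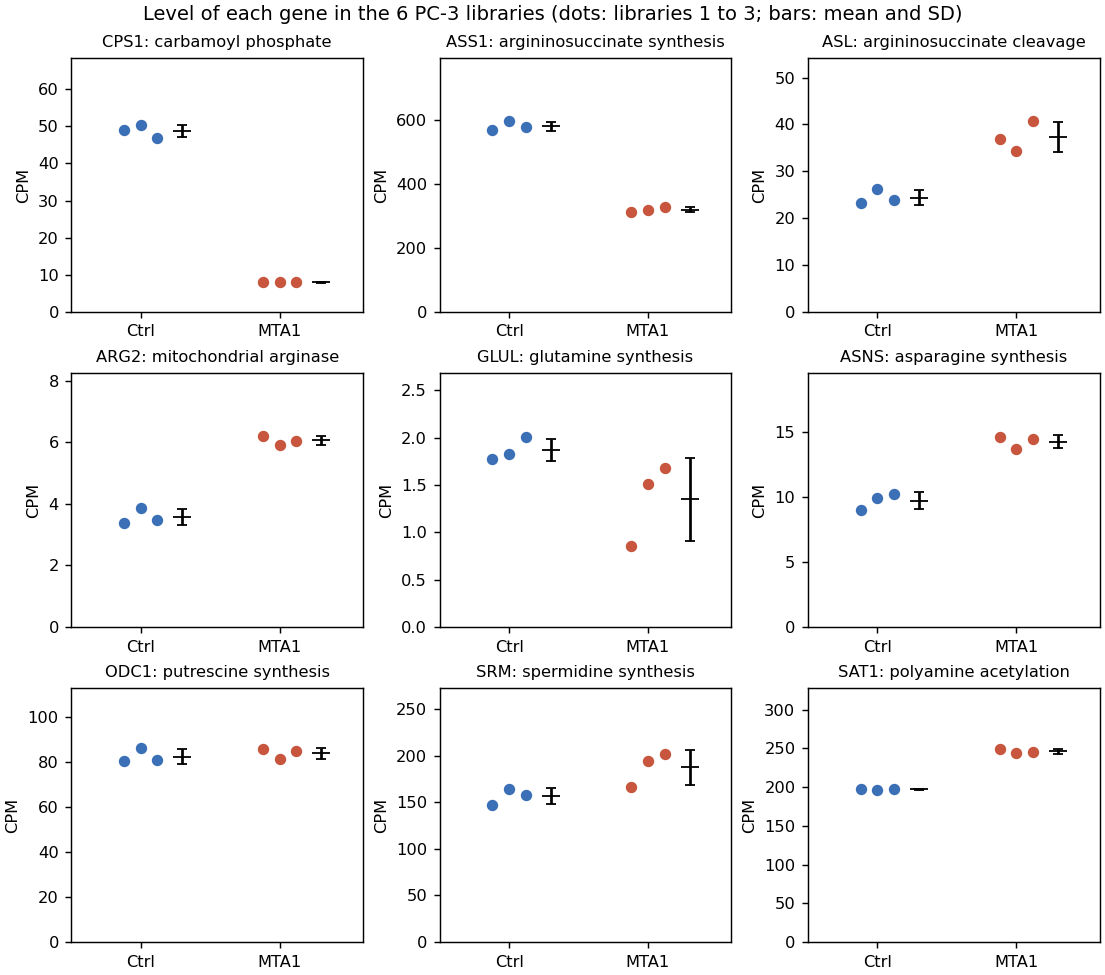
CPM of each gene in the 3 Ctrl and 3 MTA1 libraries (dots), with the mean and SD beside them. The axes start at 0, the groups are separate for every gene except ODC1, and the low GLUL dot is MTA1 replicate 1 at 0.853 CPM.

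In edgeR's quasi-likelihood test across 15423 genes, at an adjusted p under 0.05, 5 of the 9 genes were higher (ASL, ARG2, ASNS, SRM and SAT1) and 2 lower (CPS1 and ASS1), while GLUL and ODC1 did not pass. Over all genes 58.1% passed, 29.5% higher and 28.6% lower. Of the genes that passed, 50.8% were higher, against 60.1% with scaling by library size only, which moved the median log2 fold change of all genes from 0.0015 to 0.07. The libraries of the groups did not overlap for 8 of the 9, as for 62.7% of all genes. When a fold of at least 1.2 was asked for, SRM and SAT1 no longer passed and 5 of the 9 did, against 30.1% of all genes. The 9 genes were chosen with this contrast known, so nothing is read from these counts.

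**Figure D3:**
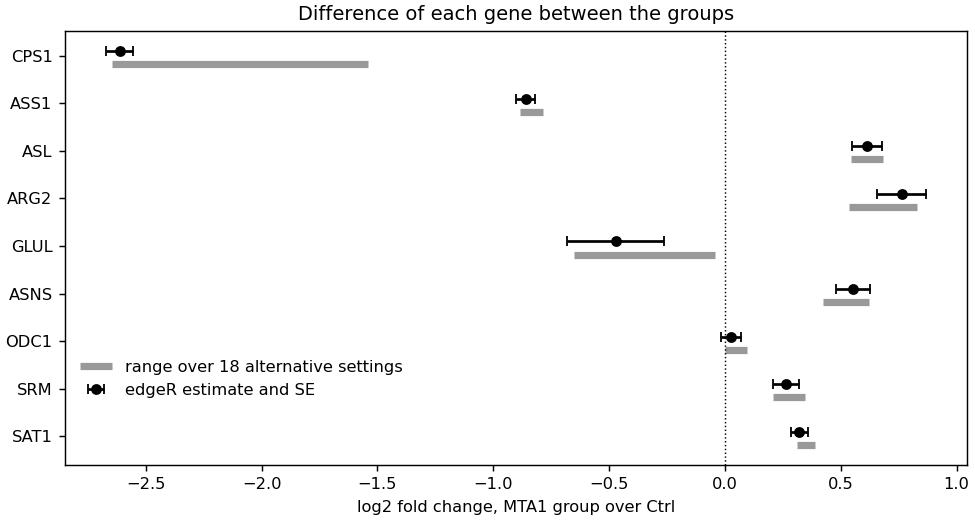
Log2 fold change of the MTA1 group over Ctrl for each gene, with the edgeR estimate and SE (black) and the range over 18 alternative settings together with that estimate (grey). The range of CPS1 reaches -1.54 on the log2(FPKM + 1) scale. No range crosses 0, but that of ODC1 starts at 0.0016 and its SE bar spans 0.

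ODC1 did not pass, and the transcript that starts beside it did. ODC1-DT, a non-coding RNA transcribed divergently from ODC1, had 41, 43 and 42 reads in Ctrl and 78, 74 and 70 in the MTA1 group. It rose from 1.31 ± 0.0259 to 2.38 ± 0.158 CPM (0.87 ± 0.17, edgeR adjusted p = 1.55e-04). Its reads were 1.65%, 1.53% and 1.58% of those of ODC1 in Ctrl and 2.99%, 2.88% and 2.67% in the MTA1 group. The difference between these log2 fold changes was not tested.

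The other genes of the urea cycle and of arginine use were mixed. Of 17 on the list, 9 had enough reads to be tested, 3 rose and 3 fell, which is 66.7% against the 58.1% of all genes, with a median log2 fold change of -0.05 against 0.0015. The liver enzymes were hardly present: OTC had no read in any Ctrl library, and ARG1 stood at 0.0203 CPM in Ctrl and 0.0635 CPM in the MTA1 group. NAGS, which makes the activator of CPS1, stood at 0.578 ± 0.110 and 0.654 ± 0.273 CPM and did not pass (0.17 ± 0.31). The arginine transporters SLC7A1 (14.99 ± 0.823 to 21.7 ± 0.670 CPM, edgeR adjusted p = 2.38e-07) and SLC7A2 (66.3 ± 0.472 to 73.1 ± 2.01 CPM) rose. Of the mitochondrial aspartate-glutamate carriers, SLC25A12 rose (0.39 ± 0.12) and SLC25A13, the form that supplies ASS1 with aspartate in liver, fell (-0.21 ± 0.059). The call of SLC25A12 ended without Ctrl replicate 1 (0.25, edgeR adjusted p = 0.0642). That of SLC25A13 ended with scaling by library size only (-0.14, edgeR adjusted p = 0.0502) and on log2(FPKM + 0.1) and log2(FPKM + 1) (limma adjusted p = 0.0529 and 0.0551).

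Both hydrolases of the nitric oxide synthase inhibitor dimethylarginine, which release citrulline, fell: DDAH2 from 40.0 ± 3.01 to 24.4 ± 0.814 CPM (edgeR adjusted p = 2.77e-09) and DDAH1 from 2.52 ± 0.329 to 1.62 ± 0.0489 CPM. The nitric oxide synthases NOS1, NOS2 and NOS3 were too low to be tested, at no more than 0.197 CPM in Ctrl. The ornithine carrier SLC25A15 (-0.05 ± 0.074) and the agmatine hydrolase AGMAT (-0.15 ± 0.078) did not pass, though AGMAT did without MTA1 replicate 1 (-0.22, edgeR adjusted p = 0.0282).

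CAD, the cytosolic maker of carbamoyl phosphate, rose while CPS1 was lower. CAD stood at 22.5 ± 2.49 CPM in Ctrl and 30.6 ± 1.62 CPM in the MTA1 group (0.44 ± 0.068, edgeR adjusted p = 1.46e-05). Per length, CPS1 was above CAD in Ctrl, with FPKM ratios of 1.90, 1.67 and 1.46, and below it in the MTA1 group, with ratios of 0.215, 0.191 and 0.198. Of 10 pyrimidine genes 4 rose and 1 fell (50% passed, against 58.1%), with a median of 0.05. DHODH, the next oxidation step in mitochondria, rose from 35.3 ± 1.22 to 60.1 ± 3.30 CPM (0.77 ± 0.051). The CTP synthase CTPS1 (0.37 ± 0.047) and the uridine phosphorylase UPP1 (0.45 ± 0.052) rose too, and the nucleoside diphosphate kinase NME1 fell from 641 ± 2.29 to 363 ± 1.46 CPM (-0.82 ± 0.037). UMPS (0.02), CTPS2 (-0.08), CMPK1 (-0.04), UCK1 (0.07) and UCK2 (-0.10) did not pass. UCK2 passed as lower without Ctrl replicate 1 (-0.13, edgeR adjusted p = 0.0269), without MTA1 replicate 3 (-0.12, edgeR adjusted p = 0.0210) and with a filter of 1 CPM in 3 libraries (edgeR adjusted p = 0.0482). UCK1 passed as higher with scaling by library size only (0.14, edgeR adjusted p = 0.0296) and on both FPKM scales (limma adjusted p = 0.0192 and 0.0195).

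Of 17 tested genes of glutamine, glutamate, aspartate and asparagine 11 rose and 1 fell, 70.6% against 58.1%, with a median of 0.20. The carriers SLC1A5 (289 ± 14.9 to 401 ± 13.2 CPM), SLC38A2 (268 ± 1.92 to 363 ± 12.1 CPM), SLC38A5 (0.60 ± 0.043) and SLC38A1 (0.20 ± 0.043) rose.

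GPT2, the mitochondrial alanine transaminase, rose from 20.1 ± 0.807 to 43.7 ± 1.39 CPM (1.12 ± 0.053, edgeR adjusted p = 8.27e-13). GOT2 (0.36 ± 0.053), glutamate dehydrogenase GLUD1 (0.21 ± 0.058) and the amidotransferases that start hexosamine synthesis, GFPT1 (0.20 ± 0.055) and GFPT2 (0.80 ± 0.079), rose. ASRGL1, an asparaginase and so of opposite action to ASNS, fell from 2.01 ± 0.277 to 0.882 ± 0.151 CPM (-1.19 ± 0.20). The rise of KYAT3 (0.16 ± 0.064) was lost with no filter (edgeR adjusted p = 0.0570), in DESeq2 (adjusted p = 0.125) and without any single library other than Ctrl replicate 2, where the edgeR adjusted p ran from 0.0556 without MTA1 replicate 1 to 0.144 without Ctrl replicate 1. GOT1 (0.09) did not pass, but did without Ctrl replicate 2 (0.15, edgeR adjusted p = 0.0335) and with scaling by library size only (edgeR adjusted p = 0.0310). GPT (-0.66 ± 0.32, under 1 CPM), PPAT (-0.05), NIT2 (0.02) and SLC38A9 (0.14) did not pass either.

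The proline genes share glutamate semialdehyde with ornithine. Of 7 tested genes of proline synthesis and breakdown 5 rose, 71.4% against 58.1%, with a median of 0.22. ALDH18A1, which makes the semialdehyde, rose from 18.4 ± 0.359 to 27.6 ± 1.11 CPM (0.58 ± 0.055, edgeR adjusted p = 1.89e-08). The reductases PYCR1 (0.16 ± 0.051) and PYCR3 (0.70 ± 0.084) rose, as did the breakdown enzyme ALDH4A1 (0.43 ± 0.10). The call of PYCR1 ended without Ctrl replicate 2 (edgeR adjusted p = 0.0679) or MTA1 replicate 3 (0.0561). OAT, which links the semialdehyde to ornithine, stood at 9.23 ± 0.630 and 9.22 ± 0.484 CPM (0.0003 ± 0.080), and PRODH (-0.19 ± 0.35) was under 1 CPM.

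Around ODC1, SRM and SAT1, the genes of polyamine synthesis and control split. Of 14 tested, 5 rose and 7 fell, 85.7% against 58.1%, with a median of -0.01. All 3 antizymes, small proteins that bind ODC1 and curb polyamine uptake, fell: OAZ1 from 699 ± 16.3 to 550.4 ± 2.98 CPM (-0.34 ± 0.038, edgeR adjusted p = 2.04e-07), OAZ2 (-0.28 ± 0.0503) and OAZ3 (-1.02 ± 0.25, near 1 CPM). AZIN1, an inhibitor of antizymes, rose from 21.1 ± 1.10 to 28.1 ± 2.55 CPM (0.42 ± 0.065), and AZIN2 (0.21 ± 0.14) did not pass. AMD1, which supplies the aminopropyl donor of SRM and SMS, fell from 27.5 ± 1.19 to 19.5 ± 0.340 CPM (-0.49 ± 0.055). The methionine adenosyltransferase genes MAT2A (-0.11 ± 0.043) and MAT2B (-0.24 ± 0.056) fell.

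Spermine synthase SMS rose slightly, from 438 ± 4.34 to 475 ± 9.55 CPM (0.12 ± 0.038), a call that ended without Ctrl replicate 3 (edgeR adjusted p = 0.0594). The call of MAT2A ended without Ctrl replicate 1 (edgeR adjusted p = 0.125) or MTA1 replicate 3 (adjusted p = 0.107), with no filter (adjusted p = 0.0729), with scaling by library size only (-0.04, adjusted p = 0.400) and on both FPKM scales. In methionine salvage, which recovers the side product of SRM and SMS, MTAP fell (-0.42 ± 0.053), MRI1 (0.40 ± 0.099), ENOPH1 (0.50 ± 0.068) and ADI1 (0.16 ± 0.041) rose, and APIP (0.08 ± 0.086) did not pass.

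Another enzyme of polyamine breakdown fell although SAT1 was higher. Spermine oxidase SMOX fell from 78.1 ± 1.24 to 52.2 ± 4.27 CPM (-0.58 ± 0.052, edgeR adjusted p = 9.08e-09), SAT2, a relative of SAT1, fell from 45.3 ± 2.41 to 34.7 ± 1.28 CPM (-0.38 ± 0.053), and PAOX was too low to be tested. Of 10 tested genes of breakdown, transport and hypusine 5 rose and 3 fell, 80% against 58.1%, with a median of 0.14. In the making of hypusine, the residue formed on EIF5A from spermidine, EIF5A (451 ± 20.9 to 532 ± 15.9 CPM) and the first enzyme DHPS (0.45 ± 0.084) rose and the second, DOHH (-0.49 ± 0.064), fell. SLC3A2, a subunit of amino acid carriers that has been tied to polyamine export, rose from 201 ± 5.79 to 281 ± 13.2 CPM (0.49 ± 0.043). The transporters ATP13A3 (0.24 ± 0.077) and SLC18B1 (0.28 ± 0.10) passed as higher, and ATP13A2 (0.05) and EIF5A2 (-0.32 ± 0.26) did not pass. The call of ATP13A3 ended without Ctrl replicate 3 (edgeR adjusted p = 0.0751) or MTA1 replicate 2 (adjusted p = 0.0819). That of SLC18B1 ended in DESeq2 (adjusted p = 0.0887) and without any single library other than MTA1 replicate 3, with edgeR adjusted p from 0.0520 without Ctrl replicate 3 to 0.128 without MTA1 replicate 1.

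Over these 6 lists and the regulators below, 35 of 76 tested genes rose and 19 fell, 71.1% against 58.1% of all genes, with a median of 0.10. The lists were written with earlier results of these data known. When a fold of at least 1.2 was asked for, 19 of the 76 list genes still passed as higher and 11 as lower. Over all genes 30.1% passed at this minimum, in either direction. Among the calls that ended at this minimum were those of SLC25A12, SLC25A13, SLC7A2, GLUD1, GFPT1, KYAT3, SLC38A1, PYCR1, ALDH4A1, SMS, OAZ2, MRI1, ADI1, MAT2A, MAT2B, ATP13A3, SLC18B1, EIF5A, ATF4, CEBPB, MYC, NR3C1 and HNF4A.

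**Figure D4:**
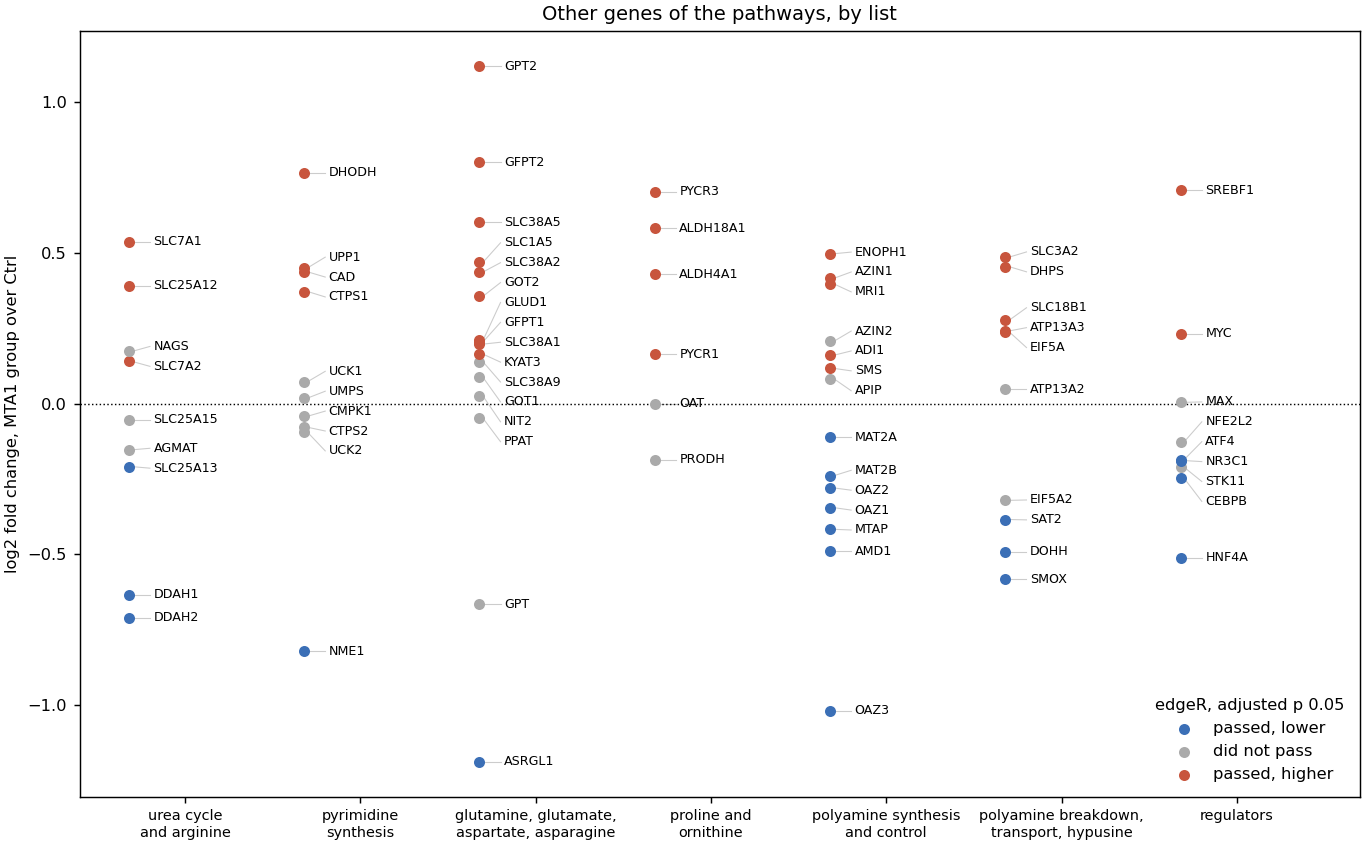
Log2 fold change of the MTA1 group over Ctrl for the tested list genes reported here, by list, coloured by whether they passed in edgeR and in which direction. In the proline list the genes that passed were higher, the polyamine synthesis list holds both directions, and GPT2 at 1.12 and ASRGL1 at -1.19 are the extremes.

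Of 9 tested regulators known from work on these genes 2 rose and 4 fell, 66.7% against 58.1%, with a median of -0.19. ATF4, a transcription factor that induces ASNS under amino acid shortage, fell from 1488 ± 24.2 to 1309 ± 24.8 CPM (-0.19 ± 0.039) while ASNS was higher. On library size only, ATF4 stood at -0.12 (edgeR adjusted p = 0.0129). MYC, an activator of ODC1 and SRM, rose from 218 ± 2.80 to 256 ± 2.36 CPM (0.23 ± 0.038), and its partner MAX (0.004 ± 0.069) did not pass. CEBPB (-0.25 ± 0.045) and the glucocorticoid receptor NR3C1 (-0.19 ± 0.055), both of which act on CPS1 in liver, fell, and SREBF1 rose (0.71 ± 0.045). The call of NR3C1 ended with scaling by library size only (edgeR adjusted p = 0.0741) and on both FPKM scales (limma adjusted p = 0.145 and 0.152). HNF4A passed as lower at 1.64 ± 0.235 against 1.15 ± 0.0889 CPM (-0.51 ± 0.19). That call ended without Ctrl replicate 1 (edgeR adjusted p = 0.0897), Ctrl replicate 2 (0.0915), MTA1 replicate 1 (0.0937) or MTA1 replicate 2 (0.0631), with scaling by library size only (0.0582), in DESeq2 (0.0898) and on both FPKM scales. NFE2L2 (-0.13 ± 0.059) and STK11 (-0.21 ± 0.15) did not pass. These are levels of RNA and say nothing of protein or activity.

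The 5 genes whose profile was nearest to that of CPS1 were ALPI, S100P, ID2, MUC16 and PRRX2, out of 11638 genes with a mean of at least 2 CPM. Likeness was the root-mean-square difference in log2 CPM over the 6 libraries, each gene centred on its Ctrl mean, and ran from 0.12 for ALPI and S100P to 0.19 for PRRX2. Only S100P was more abundant than CPS1, at 135 ± 4.11 CPM in Ctrl and 24.5 ± 1.82 CPM in the MTA1 group. ALPI (3.65 ± 0.442 to 0.548 ± 0.0701 CPM) has paralogs of similar sequence, and reads shared with them were not examined. With 6 libraries in 2 groups, this likeness is almost wholly a like difference between the groups.

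**Figure D5:**
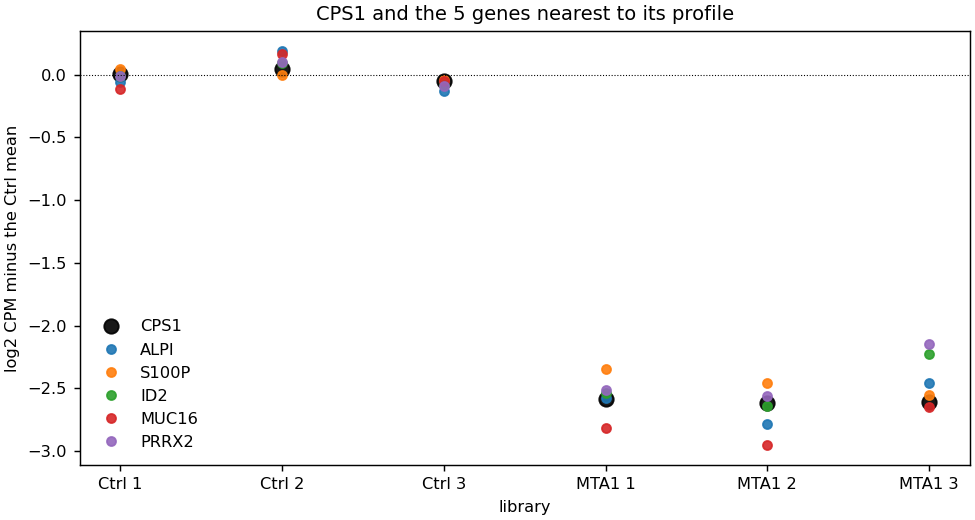
Log2 CPM minus the Ctrl mean in each of the 6 libraries for CPS1 (black) and the 5 genes nearest to it. All 6 genes lie near 0 in Ctrl and between -2.95 and -2.15 in the MTA1 group.

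CPS1 and ASS1 are high in liver, and CPS1 and ALPI in small intestine, so markers of other cell types were read beside them. The 5 tested of 7 hepatocyte markers had edgeR adjusted p from 0.120 to 0.810, with a summed level of 33.6 to 35.6 CPM in Ctrl and 32.3 to 33.6 CPM in the MTA1 group. ALB stood at 4.29 ± 0.0658 CPM in Ctrl, TTR at 0.135 CPM and TAT at 0.0209 CPM. Of 6 enterocyte markers 3 were tested and only ALPI fell, with sums of 6.08 to 6.87 CPM in Ctrl and 2.93 to 3.54 CPM in the MTA1 group, and FABP2 at 0 in Ctrl. The fibroblast list summed to 49.2 to 55.1 and 36.2 to 38.0 CPM (2 of 6 fell) and the leukocyte list to 1.46 to 2.11 and 1.06 to 1.51 CPM, with 1 of 2 tested lower and PTPRC at 0.0425 CPM in Ctrl. SI and CD3E were on these lists but were not found by symbol among the genes with counts. The enterocyte sum was lower through ALPI, while VIL1 (1.02 ± 0.175 and 1.08 ± 0.211 CPM) and FABP1 (1.74 ± 0.0467 and 1.63 ± 0.264 CPM) overlapped between the groups. Most of the fibroblast difference was COL1A1 (31.6 ± 1.46 to 16.4 ± 0.470 CPM), while LUM stood at 12.6 ± 0.851 and 13.9 ± 1.05 CPM. The part of these cell types in the difference of CPS1 was not tested.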

How the data were processed

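RNA was isolated with TRIzol, cleared of DNA and made into stranded total RNA libraries read in pairs, per the labels' protocols. The authors deposited whole-number counts per gene, without normalization, and FPKM values, which the authors scaled by gene length and depth and rounded to 2 decimals. The aligner, counter, strand setting, genome build and gene models are unknown, being not given in the sources used here. DESeq2 appears in the submitters' processing notes with no stated use. The shMTA1 columns carry the name of the MTA1 samples, and the NC columns were assigned to Ctrl by elimination.

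Counts were tested in R 4.3.3 with edgeR 4.0.16 (filterByExpr, TMM, quasi-likelihood F test, 2-sided, Benjamini-Hochberg over 15423 genes). SE came from the F statistic. Alternatives used limma 3.58.1 and DESeq2 1.42.0. On simulated counts for the MTA1 against Ctrl comparison over 15423 genes, the test recovered 42% of genes changed 1.2-fold, 74% at 1.5-fold, 86% at 2-fold and 94% at 4-fold. Overlapping genes were found in GENCODE 29 by gene identifier, and promoters came from RefSeq (GRCh38.p14).

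The 9 genes and the gene and marker lists were chosen with earlier results of these data known. By rule, the 9 genes, MTA1, any gene of the 7 lists, the 5 genes most like CPS1 and genes that can share reads were named. Marker genes were read as levels. Others are marked as chosen later. List counts and medians cover all tested genes of a list, of which a few are not reported here by name.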

Additional observations from a re-analysis of the deposited data

How the results depend on the processing

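Results were recomputed under 18 alternatives, except that a filter of 1 CPM in 3 libraries removed NAGS, GPT, PRODH, OAZ3 and EIF5A2. Asking for a fold of at least 1.2 left 4650 genes in all (30.1%), against 8954 (58.1%). It left 3 of the 9 genes higher, and 19 list genes higher and 11 lower. Under the other alternatives every count stayed within 1.5 times. The 5 genes called higher and the 2 called lower kept their calls in all settings except SRM (adjusted p = 0.489) and SAT1 (adjusted p = 0.0646) at that minimum fold. Leaving out single libraries gave 8145 to 8586 calls. Signs changed only in genes that had not passed. Scaling by library size only turned SLC25A15 (0.015), CMPK1 (0.026) and PPAT (0.019) positive, as did log2(FPKM + 0.1) (0.012, 0.026 and 0.016) and log2(FPKM + 1) (0.0081, 0.025 and 0.0065). OAT turned negative with DESeq2 size factors (-0.0059), upper-quartile scaling (-0.0032), a filter of 1 CPM in 3 libraries (-0.0037) and the DESeq2 test (-0.0064), and MAX with DESeq2 size factors (-0.0018) and the DESeq2 test (-0.0021). Without single libraries OAT ran from -0.053 to 0.042, MAX from -0.054 to 0.052, NAGS from -0.21 to 0.37, SLC38A9 from -0.034 to 0.36 and PRODH from -0.62 to 0.11. The cause was not tested. No pairing by replicate number was seen across all genes. Deviations of same-numbered libraries correlated at 0.067, -0.021 and 0.019, and those of other pairs at -0.079 to 0.062. Such correlations cannot show that the libraries were unpaired. With the replicate number as a block, 9139 genes passed, GLUL among them (-0.48, edgeR adjusted p = 0.0420), as did UCK2 (-0.10, adjusted p = 0.0344), and no other call of the 9 genes or list genes changed. GLUL rests on at most 66 reads per library.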
